A study of Mus musculus with 12 samples.

Results

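Membrane transporter genes of the solute carrier (SLC) and ATP-binding cassette (ABC) families were followed in mouse blood stem and progenitor cells that carry 2, 1 or no working alleles of Erg, which encodes a transcription factor of the ETS family. All gene symbols of the SLC families (Slc or Slco followed by the family) and of ABC subfamilies a to g were taken, apart from Slc4a1, with the probe set of the highest mean over 12 arrays standing for a gene that has several. This gave 203 genes of 9984, 182 of them SLC and 21 ABC. The rule matched gene names and not measured differences, but it was set with earlier results of these data known and names Slc29a3. Of the 203, 3 do not encode transporters: Slc7a6os lies opposite Slc7a6, Slc2a4rg-ps is a pseudogene, and Slc9a3r2 encodes a scaffold protein. No ABCG gene is analysed here. The 98 members at or above the median probe set brightness of all genes and the 105 under it were both kept, with no filter on dim probe sets.

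RNA came from sorted bone marrow of male mice, bred to C57Bl/6 for at least 6 generations, on Affymetrix arrays with 3 samples in each of 4 groups. Hematopoietic stem cells (HSCs), sorted as Lineage-, Sca-1+, c-kit+, CD150+ and CD48-, came from Erg +/+ mice and from Erg +/- mice, the latter bred from a floxed Erg allele with a general Cre deleter. The multipotent progenitor (MPP) groups were Erg fl/fl, whose mice carry no Cre, and Erg -/-, whose mice carry the same floxed allele and the interferon-driven Mx1-Cre. To induce this Cre, pIpC, a synthetic double-stranded RNA, was injected 5 times into the mice of both MPP groups, and cells were sorted 2 weeks after injections began. The HSC labels name no pIpC. The floxed exon 11 encodes the DNA-binding domain, and the allele was made in E14.1 embryonic stem cells. The Erg +/- samples carry a knock-out title, but the genotype field was followed. The MPP labels disagree on the gate, CD150- in the sorting field against CD150+CD48- in the source field. Whether the 3 samples of a group are 3 animals is not stated, and the p-values cover the spread among samples, possibly a technical one. Erg itself is not analysed here and gives no check of the genotypes.

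SLC proteins are carriers, exchangers and channels that move nutrients, ions, metals, nucleosides and metabolites across the plasma membrane and the membranes of organelles, mostly down a gradient or coupled to one. ABC proteins hydrolyse ATP, and most use it to export lipids, drugs and conjugates, whereas the ABCE and ABCF proteins have no membrane domain and act on ribosomes. In blood cells these families supply amino acids for growth, iron and glycine for heme, and nucleosides and lysosomal breakdown products for reuse.

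The arrays carry intensities after robust multi-array averaging (RMA), on a log2 scale, so a difference of 1 is a 2-fold change, and a fold is 2 to the power of the difference. Array medians over all probe sets lay between 5.41 and 5.54. Interquartile ranges were 2.83 to 2.99 in HSC arrays and 2.50 to 2.84 in MPP arrays, and the replicates of a group correlated at r of 0.953 to 0.974. Of 23 HSC-associated marker genes 5 were measured, and all 5 were called lower in MPPs, both between the control groups and between the reduced-Erg groups. Of 13 genes associated with multipotent and lymphoid progenitors 5 were measured, and 3 were called higher in Erg fl/fl MPPs than in Erg +/+ HSCs. Between the reduced-Erg groups 3 of these 5 had positive differences, 1 of them called, and 2 negative ones. These lists were chosen with earlier results of these data known, so the counts are no independent check of the sorted populations. The sorting markers Slamf1, Cd48, Kit, Ly6a and Cd34 are not analysed here. Levels are not compared between genes, because probe sets differ in their response.

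Promoter letters are shown for Slc29a3 and Slc35g1, the members with the smallest p-value in each direction between the control populations, because ETS factors such as Erg bind the core GGAA. The 250 bases before each RefSeq gene start are given (assembly GRCm38.p6, read 5′ to 3′ along the gene's strand), with every GGAA, or its complement TTCC, in capitals. For Slc29a3 the window is chr10:60752783-60753032 on the minus strand, and for Slc35g1 it is chr19:38395730-38395979 on the plus strand.
Slc29a3: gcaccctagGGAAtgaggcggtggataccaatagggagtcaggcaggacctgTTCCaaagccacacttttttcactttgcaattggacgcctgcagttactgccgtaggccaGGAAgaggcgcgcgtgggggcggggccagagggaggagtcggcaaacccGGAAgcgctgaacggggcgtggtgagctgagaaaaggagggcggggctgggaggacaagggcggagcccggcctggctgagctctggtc
Slc35g1: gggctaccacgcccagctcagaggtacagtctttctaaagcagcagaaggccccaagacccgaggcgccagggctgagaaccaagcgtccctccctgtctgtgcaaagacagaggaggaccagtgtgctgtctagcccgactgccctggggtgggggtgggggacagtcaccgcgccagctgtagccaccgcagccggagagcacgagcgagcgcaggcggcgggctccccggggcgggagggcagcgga
The Slc29a3 window holds 4 matches to GGAA on either strand, 1 of which lies in the longer ETS core CCGGAA that starts 91 bases before the gene start, and the Slc35g1 window holds 0. A match is a description of these letters and not of binding. RefSeq windows were found for 162 of the 203 members. CCGGAA, searched on both strands, occurred for 31 of these 162 genes (19.1%), against 13.6% of all 27025 genes with a window, and GGAA, which CCGGAA contains, for 90.1% against 94.2%. The 27025 genes are not limited to the 9984 measured here, and shares over the measured genes alone were not computed. No window is given for Slco3a1.

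The loss of 1 Erg allele in HSCs left no transporter gene past the threshold. The member nearest to it was Slc29a3, a nucleoside transporter of lysosomes, and next to it stood Slco3a1, an organic anion transporter of the plasma membrane, both with lower values in Erg +/- HSCs. By limma with Benjamini-Hochberg adjustment over all genes, 0 of 203 members were called, beside 0.02% of all genes. At an unadjusted p under 0.05 there were 13 members (6.4%) beside 6.32% of all genes. Of these 13, 3 were higher (all genes 2.73%) and 10 lower (all genes 3.59%). The 3 arrays of one genotype did not overlap those of the other for 23 members (11.3%), beside 10.4% of all genes. These shares lie near the background. The median difference was 0.0442 over members and 0.0241 over all genes.

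Slco3a1 encodes OATP3A1, which carries prostaglandins, thyroid hormone and other organic anions. Its probe set stood at log2 values of 7.63, 7.92 and 7.72 in Erg +/+ HSCs, 7.08, 6.52 and 6.13 in Erg +/- HSCs, 8.04, 7.91 and 7.67 in Erg fl/fl MPPs, and 6.65, 6.49 and 6.97 in Erg -/- MPPs. All 6 arrays of the control groups lay above all 6 arrays of the reduced-Erg groups. The difference was -1.18 in HSCs (SE 0.232, 2.27-fold lower) and -1.17 in MPPs (SE 0.232, 2.26-fold lower), each with adjusted p = 0.152 by limma. Neither comparison passed alone. The 2 comparisons share no array, and the difference between their effects was 0.01 (SE 0.328). Between the control populations Slco3a1 differed by 0.12, and between the reduced-Erg populations by 0.13, both under 1 SE.

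The mean of the HSC and MPP differences was added after the data had been seen. On that contrast Slco3a1 was called, with -1.18 (SE 0.164) and adjusted p = 0.0159 by limma, 1 of 203 members (0.493%) beside 0.1% of all genes in either direction and 0.0701% lower. The call depends on the processing: it passed in 12 of 22 alternatives and in 5 of the 12 runs with 1 array left out. It missed the threshold without Erg +/+ HSC replicate 1 (adjusted p = 0.0521), Erg +/- HSC replicate 2 (0.0563), Erg fl/fl MPP replicate 1 (0.0628), 2 (0.0577) or 3 (0.0543), or Erg -/- MPP replicate 1 (0.0734) or 2 (0.0631). The difference itself ranged from -1.30 to -1.07 over these runs. Slco3a1 was also the 1 member whose arrays did not overlap in the same direction in both comparisons, where 0.781% of all genes did not.

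Markers of other cells were read in the same groups. Of 16 measured erythroid genes (25 listed) 15 had positive differences in each of the HSC and MPP comparisons, and 0 were called by limma. An unadjusted p under 0.05 was reached by 5 higher and 1 lower gene in HSCs and by 1 higher gene in MPPs. The lower gene was Hemgn, at -0.89 in HSCs and -0.59 in MPPs. Between the control populations 16 of the 16 erythroid genes were positive, and between the reduced-Erg populations 11. Many of their probe sets are dim, and of 4992 dim genes 2981 were positive in HSCs and 3077 in MPPs. Summed on the linear scale, the erythroid genes ranged from 813 to 1324 in Erg +/+ HSCs, 1315 to 1995 in Erg +/- HSCs, 1009 to 1284 in Erg fl/fl MPPs and 1100 to 2368 in Erg -/- MPPs. Both the HSC groups and the MPP groups overlap in these sums. Bright genes weigh most in such sums. Among them, Car1 read 9.28, 7.93 and 6.74 in Erg +/+ HSCs and 8.31, 10.27 and 6.55 in Erg -/- MPPs. Genes of other lists fell in Erg -/- MPPs. Called lower by limma were 2 of 5 multipotent and lymphoid progenitor genes, 2 of 7 B cell genes and 1 of 4 mast cell and basophil genes. So were 1 of 5 granulocyte and monocyte genes and 1 of 5 HSC-associated genes, Ifitm1 (-1.66, adjusted p = 0.000442 by limma). Called higher were 0 genes of these lists. Differences were negative for 4 of 5 HSC-associated, 5 of 7 B cell and 3 of 4 mast cell and basophil genes. They were also negative for 4 of 5 granulocyte and monocyte genes, and the other genes of these 4 lists were positive. The 2 called progenitor genes, Igll1 and Vpreb1, are also the 2 called B cell genes, because both lists hold them. Vpreb1 fell from a group mean of 10.1 to 5.36. Of the 5 progenitor genes 4 were lower and 1, Flt3, was higher (0.52, uncalled). Summed levels of the multipotent and lymphoid list were 282 to 747 in Erg +/+ HSCs, 230 to 393 in Erg +/- HSCs, 1966 to 2679 in Erg fl/fl MPPs and 816 to 1006 in Erg -/- MPPs. B cell sums were 4059 to 4847 in Erg fl/fl MPPs and 2735 to 3283 over the other 3 groups. Most of the latter sums is Cd24a, with group means of 11.4 to 11.5 in all 4 groups. Cd24a differed by 0.09 in HSCs and 0.05 in MPPs. Mast cell and basophil sums were 274 to 736 in Erg fl/fl MPPs and 132 to 186 over the other groups, and granulocyte and monocyte sums 706 to 1113 against 210 to 440. In the mean of both comparisons 5 of 5 multipotent and lymphoid genes had negative differences and 2, again Igll1 and Vpreb1, were called. The part of all these lists in the Slco3a1 result and in the MPP values below was not tested. In sorted bulk samples, fewer cells of a type and less RNA per cell cannot be told apart. In the MPP comparison the groups also differ in Mx1-Cre, so Cre and genotype cannot be told apart.

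**Figure D1:**
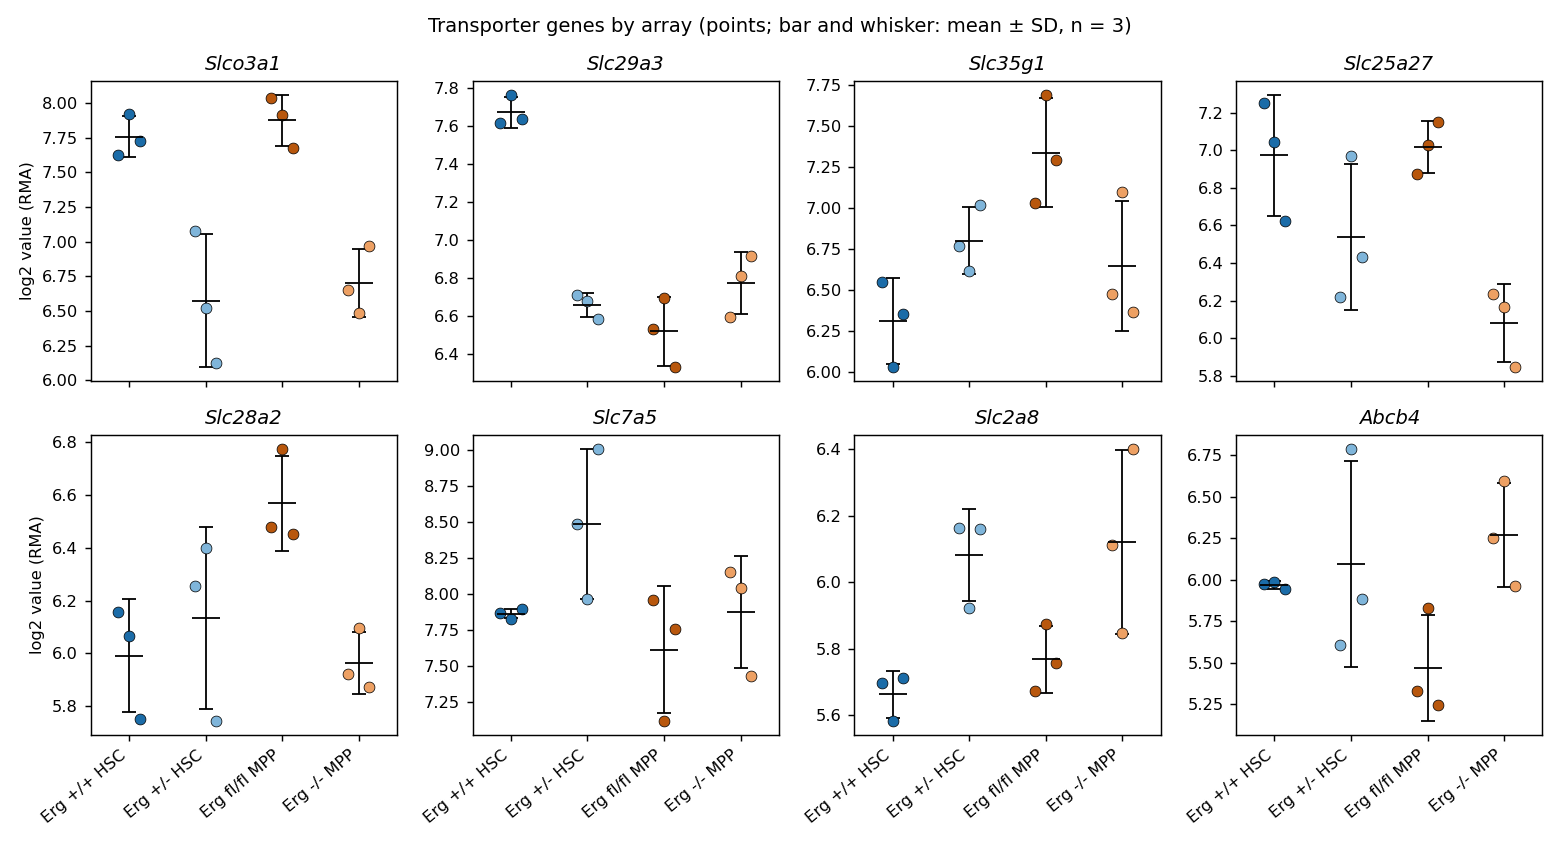
Log2 value of 8 transporter genes on each of the 12 arrays (y axis, scaled for each gene and not starting at 0) in the 4 groups (x axis), with points for arrays and a bar and whisker for mean ± SD, n = 3. Slco3a1 lies lower in both reduced-Erg groups, and Slc29a3 is high in Erg +/+ HSCs alone among these groups.

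Slc29a3 encodes ENT3, an equilibrative nucleoside transporter that returns nucleosides from lysosomes to the cytosol. Log2 values were 7.61, 7.76 and 7.63 in Erg +/+ HSCs, 6.71, 6.68 and 6.59 in Erg +/- HSCs, 6.53, 6.69 and 6.33 in Erg fl/fl MPPs, and 6.60, 6.81 and 6.91 in Erg -/- MPPs. The Erg +/+ HSC arrays lay above the other 9 arrays, and those 9 spanned 6.33 to 6.91. Slc29a3 was the 1 member called between the control populations (1 of 203, 0.493%, beside 1.28% of all genes in either direction and 0.631% lower): it fell 2.22-fold from Erg +/+ HSCs to Erg fl/fl MPPs, by 1.15 on the log2 scale (SE 0.156, adjusted p = 0.00366 by limma). The call was kept in all 23 alternatives that were run, with adjusted p from 0.00254 to 0.0363 and differences from -1.25 to -1.06.

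In HSCs the Slc29a3 difference was -1.01 (SE 0.156) with adjusted p = 0.0625 by limma, so it missed the threshold. It passed in 1 of 23 alternatives, a filter that kept genes at or above percentile 25 of brightness (adjusted p = 0.0478), and the adjusted p otherwise reached 0.358. In MPPs the difference was 0.25 (SE 0.156, adjusted p = 0.998), and between the reduced-Erg populations it was 0.12 (adjusted p = 0.677). The difference between the effects in MPPs and HSCs was 1.27 (SE 0.220, adjusted p = 0.134), which was not called. The HSC comparison and the control populations share the 3 Erg +/+ HSC arrays, so these values of Slc29a3 are not independent of each other.

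Endothelial and stromal markers were read in the same arrays. Of 19 listed genes 7 were measured. Summed on the linear scale, they ranged from 574 to 1174 in Erg +/+ HSCs, 349 to 402 in Erg +/- HSCs, 424 to 591 in Erg fl/fl MPPs and 384 to 452 in Erg -/- MPPs. The highest sums were thus in Erg +/+ HSCs, with an overlap with Erg fl/fl MPPs. In the HSC comparison 6 of the 7 had negative differences and 1, Sparc, a collagen-binding matrix protein, was called (-2.08, adjusted p = 0.0401 by limma). Their part in the Slc29a3 result was not tested. Sparc itself stood at 7.97, 7.40 and 7.40 in Erg +/+ HSCs and at 5.16 to 6.63 in the other 9 arrays.

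The other nucleoside transporters measured were Slc28a2, Slc28a2b and Slc29a2. Slc28a2 encodes CNT2, which takes up purine nucleosides together with sodium. It read 6.16, 6.07 and 5.75 in Erg +/+ HSCs, 6.26, 6.40 and 5.74 in Erg +/- HSCs, 6.48, 6.78 and 6.45 in Erg fl/fl MPPs, and 5.92, 6.09 and 5.87 in Erg -/- MPPs. The Erg fl/fl MPP arrays lay above every other array. The difference was -0.61 in MPPs (SE 0.198, adjusted p = 0.946 by limma) and 0.58 between the control populations (SE 0.198, adjusted p = 0.134), and neither passed. These 2 comparisons share the Erg fl/fl arrays. Slc28a2b and Slc29a2 differed by at most 0.32 in size in any of the HSC, MPP and population comparisons.

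Among genes with higher values in Erg +/- HSCs, those with the smallest p-values were Slc25a53 and Slc25a43, mitochondrial carriers of unsettled substrate, Slc2a8, which encodes the intracellular hexose transporter GLUT8, Slc7a5, which encodes the leucine transporter LAT1, and Slc35g1. Slc2a8 read 5.70, 5.58 and 5.71 in Erg +/+ HSCs, 6.16, 5.92 and 6.16 in Erg +/- HSCs, 5.67, 5.87 and 5.76 in Erg fl/fl MPPs, and 6.11, 5.85 and 6.40 in Erg -/- MPPs. Its groups did not overlap in HSCs, and in MPPs 1 Erg -/- array lay within the range of the controls. The differences were 0.42 (SE 0.169) in HSCs and 0.35 in MPPs, and their mean of 0.39 had adjusted p = 0.513 by limma. Slc7a5 read 7.87, 7.83 and 7.89 in Erg +/+ HSCs and 8.49, 7.96 and 9.01 in Erg +/- HSCs. The groups did not overlap, but the Erg +/- arrays were spread widely, and the difference of 0.62 (SE 0.289) had adjusted p = 0.796 and was 0.36 without replicate 3 of the Erg +/- HSCs. Slc25a43 differed by 0.40 in HSCs without overlap and by 0.34 in MPPs with overlap, with adjusted p = 0.552 for the mean of both. Slc25a53 read 3.73, 4.13 and 3.60 in Erg +/+ HSCs and 3.81, 5.42 and 4.68 in Erg +/- HSCs, which overlapped (difference 0.82, SE 0.309, adjusted p = 0.755). Without Erg +/- HSC replicate 2 the Slc25a53 difference was 0.43, and without replicate 1 it was 1.23.

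Lower values in Erg +/- HSCs, none called, were read for the following genes. Slco4a1, which encodes a thyroid hormone transporter of the OATP family, read 6.20, 6.48 and 6.98 in Erg +/+ HSCs and 6.26, 5.79 and 5.35 in Erg +/- HSCs, with 1 array of each group overlapping (-0.75, SE 0.251, adjusted p = 0.691 by limma). Abcd4, a lysosomal ABC protein needed for the release of vitamin B12, read 6.60, 6.07 and 6.68 in Erg +/+ HSCs and 5.98, 6.04 and 5.84 in Erg +/- HSCs, without overlap. Its difference was -0.50 in HSCs (adjusted p = 0.766) and -0.63 between the control populations (adjusted p = 0.106). Slc23a1, a sodium-coupled vitamin C transporter, differed by -0.46 and Slc52a3, a riboflavin transporter, by -0.56, both without overlap. The remaining members with an unadjusted p under 0.05 were Slc12a7 (-0.42), a potassium-chloride cotransporter, Slc25a30 (-0.52), a mitochondrial carrier, Slc39a4 (-0.53), a zinc importer, and Slc9a5 (-0.52), a sodium-proton exchanger. None of these 4 was called, and the groups of all 4 did not overlap. Of the 8 mono- and dicarboxylate carriers (SLC13 and SLC16), which include the lactate transporter gene Slc16a1, 7 had negative differences, with a median of -0.19 and 0 called. Of the 21 ABC genes 16 were positive, with a median of 0.13 and 0 called, where 53.8% of all genes were positive. Vitamin and heme carriers were 4 positive and 4 negative, bicarbonate and anion carriers were positive in 8 of 10 cases and the calcium exchangers in 3 of 3, with 0 called.

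The loss of Erg in MPPs gave 0 called members of 203 by limma, beside 0.0801% of all genes. At an unadjusted p under 0.05 there were 11 members (5.42%) beside 4.79% of all genes. Of these 11, 4 were higher (all genes 1.21%) and 7 lower (all genes 3.58%). Groups did not overlap for 19 members (9.36%), beside 10.5% of all genes. The median difference was 0.0252 over members and -0.00395 over all genes. After Slco3a1, the smallest p belonged to Slc25a27, which encodes the mitochondrial uncoupling protein UCP4. It read 7.25, 7.05 and 6.62 in Erg +/+ HSCs, 6.22, 6.97 and 6.43 in Erg +/- HSCs, 6.88, 7.03 and 7.15 in Erg fl/fl MPPs, and 6.23, 6.17 and 5.85 in Erg -/- MPPs. The MPP groups lay wholly apart, and the HSC groups overlapped by 1 array each. The differences were -0.94 in MPPs (SE 0.225, adjusted p = 0.416) and -0.43 in HSCs, with a mean of -0.68 (adjusted p = 0.301 by limma).

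Slc35g1, an SLC35 family member, differed in opposite directions in the 2 populations. Its log2 values were 6.55, 6.03 and 6.35 in Erg +/+ HSCs, 6.77, 6.61 and 7.02 in Erg +/- HSCs, 7.03, 7.69 and 7.29 in Erg fl/fl MPPs, and 6.48, 7.10 and 6.37 in Erg -/- MPPs. The HSC groups did not overlap, and in MPPs 1 Erg -/- array lay within the control range. The differences were 0.49 in HSCs and -0.69 in MPPs, and the difference of the effects, -1.18 (SE 0.338), had adjusted p = 0.855 by limma. Between the control populations Slc35g1 differed by 1.03 (SE 0.239, adjusted p = 0.0571), just short of the threshold.

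**Figure D2:**
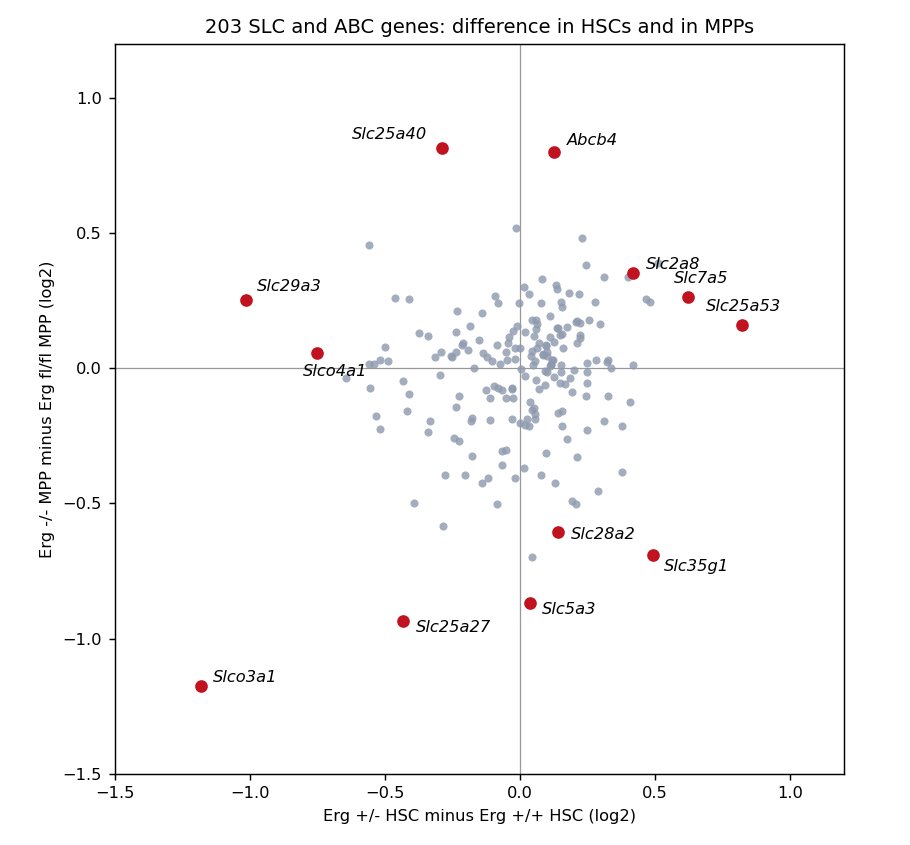
Difference in Erg +/- against Erg +/+ HSCs (x axis, log2) and in Erg -/- against Erg fl/fl MPPs (y axis, log2) for the 203 genes, with each point a gene and 12 of those with the largest differences or smallest p-values named in red. Most points lie near 0, and Slco3a1 lies farthest to the lower left, at -1.18 and -1.17.

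Higher values in Erg -/- MPPs were seen for Abcb4, which encodes the floppase that exports phosphatidylcholine into bile. It read 5.33, 5.83 and 5.24 in Erg fl/fl MPPs and 6.25, 6.59 and 5.96 in Erg -/- MPPs, without overlap (0.80, SE 0.282, adjusted p = 0.977 by limma). In HSCs it read 5.98, 5.99 and 5.94 with 2 Erg alleles, and 5.61, 6.79 and 5.88 with 1. Erg fl/fl MPPs had the lowest group mean of Abcb4. Slc45a4, of a proton-coupled sugar transporter family, was 0.52 higher and Slc8a1, the sodium-calcium exchanger NCX1, 0.48 higher in Erg -/- MPPs, both without overlap and neither called. Slc25a40, a mitochondrial carrier linked to glutathione import, differed by 0.81 with overlap, and its other probe set differed by -0.27, so its 2 probe sets disagreed in sign. The 0.81 became 1.24 without Erg fl/fl MPP replicate 1 and 0.52 without replicate 3. Lower values without overlap were read for Slc38a2, which encodes the stress-inducible glutamine transporter SNAT2, at 10.00, 9.78 and 9.67 in Erg fl/fl MPPs and 9.57, 9.42 and 9.27 in Erg -/- MPPs. Its difference was -0.40 in MPPs and -0.20 in HSCs. Slc5a3, the myo-inositol transporter, differed by -0.87 and Slc39a10, a zinc importer, by -0.70, both with overlapping groups. Without Erg -/- MPP replicate 3 the Slc39a10 difference was -0.45 and that of Slc2a8 in MPPs 0.21. Of the 8 vitamin and heme carriers 7 were positive in MPPs, with a median of 0.251 and 0 called by limma (0 at an unadjusted p under 0.05). Over all genes 49.4% were positive.

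Genes of heme and iron supply were read for themselves, since 15 of 16 erythroid genes were positive in each of the HSC and MPP comparisons. Slc25a37 encodes mitoferrin-1, the mitochondrial iron importer of erythroid cells. It read 7.18, 7.19 and 7.26 in Erg +/+ HSCs, 7.68, 7.35 and 7.48 in Erg +/- HSCs, 7.58, 7.01 and 6.81 in Erg fl/fl MPPs, and 7.23, 7.76 and 6.90 in Erg -/- MPPs. HSC groups did not overlap and MPP groups did, with differences of 0.30 and 0.16, neither called. Slc25a38, the carrier that supplies glycine for heme synthesis, differed by 0.33 in HSCs and 0.03 in MPPs. Slc25a28, mitoferrin-2, differed by 0.05 and -0.15. Abcb10, a mitochondrial ABC protein of erythroid cells, differed by 0.15 and -0.16, and Slc11a2, the iron importer DMT1, by 0.11 and 0.01. None of these 5 genes was called by limma.

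Over all members, signs in the HSC and MPP comparisons matched for 111 of 203 (54.7%), the same share as over all genes (54.7%). Across genes, which are not independent replicates, the differences correlated at r = 0.179 (rho = 0.165) over members and 0.135 (0.133) over all genes. For the difference between the effects, 0 members were called, beside 0.02% of all genes, and 5 (2.46%) had an unadjusted p under 0.05, beside 3.88% of all genes.

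Between the control populations, 43 members (21.2%) had an unadjusted p under 0.05, beside 22.3% of all genes, and groups did not overlap for 58 (28.6%), beside 27% of all genes. Population, pIpC treatment and the floxed allele differ together here and cannot be told apart. The sign of a difference followed probe set brightness. Of the 105 dim members 85 were positive, with a median of 0.238, and of the 98 bright members 32 were, with a median of -0.136. Over all genes the medians were 0.204 for dim and -0.00193 for bright probe sets. The narrower spread of MPP arrays moves with this pattern, and after a repeated quantile normalisation the medians were 0.0534 for dim and -0.111 for bright members. The share of positive members was 57.6% as deposited, 50.2% after that step and 52.2% after median centring. The shift over all genes was 0.122 as deposited and 0.0296 after quantile normalisation, so the differences below are on the deposited scale.

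Over all genes 62.4% of differences were positive between the controls and 59.9% between the reduced-Erg populations. By class, organic ion, bile acid and drug carriers (SLC10, SLC22 and SLCO) were positive in 21 of 25 cases between the controls, with a median of 0.293. The same class was positive in 22 of 25 cases between the reduced-Erg populations, which share no array with the controls, with a median of 0.322. After quantile normalisation these counts were 20 and 21, and the medians 0.191 and 0.196. Many of these genes are known from liver and kidney. Their probe sets include the dimmest of all members (Slc22a27, mean 2.14, and Slco6d1, mean 2.42), and dim members as a whole were positive. Of 4992 dim genes of the whole series, 3735 were positive between the controls. Sugar carriers (SLC2, SLC5, SLC37 and SLC45) were positive in 13 of 14 cases between the controls and 11 of 14 between the reduced-Erg populations. After quantile normalisation these counts were 11 and 11, and the positive shares of all genes 53.9% and 58%. Metal carriers were negative in 12 of 17 cases in both, with medians of -0.136 and -0.0323. Mitochondrial carriers were negative in 16 of 29 cases (median -0.0579) and in 18 of 29 (median -0.195). Vitamin and heme carriers were negative in 7 of 8 cases between the controls, with a median of -0.191, and in 3 of 8 between the reduced-Erg populations, with a median of 0.164. After quantile normalisation the negative counts were 11 and 11 for metal carriers and 19 and 20 for mitochondrial carriers. For vitamin and heme carriers they were 7 and 4. Apart from Slc29a3 between the controls, 0 members of any class were called.

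**Figure D3:**
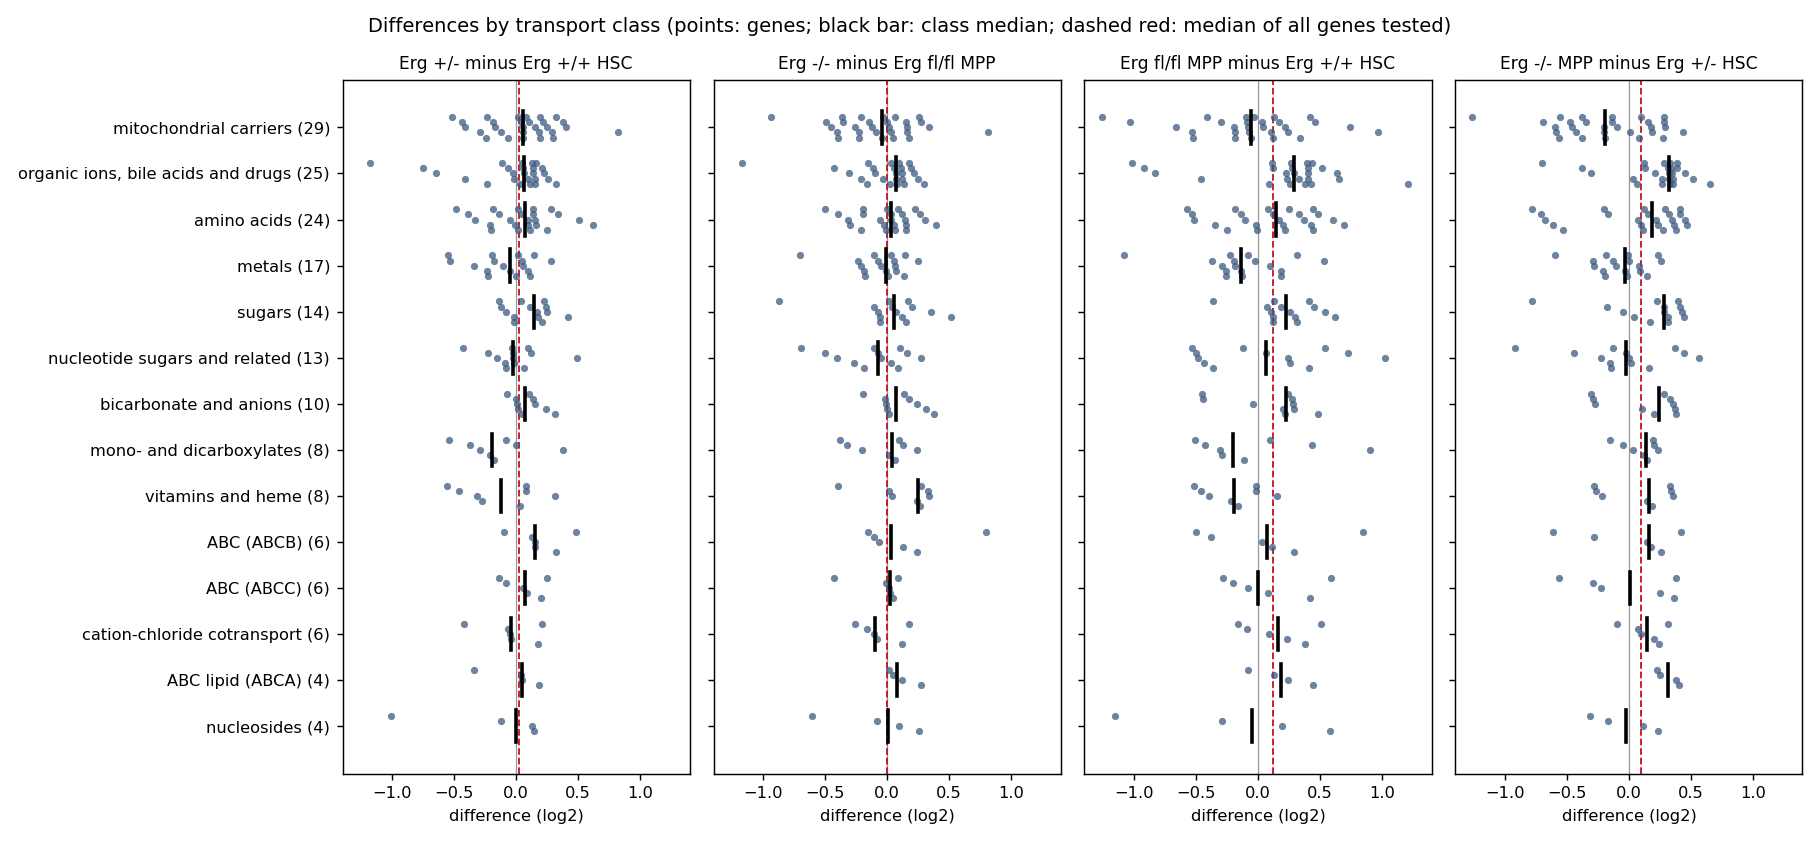
Log2 difference (x axis) of each gene (points) by transport class (rows, number of genes in brackets, classes of at least 4 genes) in 4 comparisons (panels), with the class median as a black bar and the median of all 9984 genes as a dashed red line. Organic ion carriers lie to the right of 0 in both population panels (medians 0.293 and 0.322). In the MPP panel the vitamin and heme class has a median of 0.251, and in the HSC panel the mono- and dicarboxylate class one of -0.19.

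Genes higher in Erg fl/fl MPPs than in Erg +/+ HSCs with the smallest p-values, after Slc35g1, were as follows. Slc1a4, which encodes the neutral amino acid exchanger ASCT1, read 4.23, 4.81 and 4.88 in Erg +/+ HSCs, 4.64, 4.79 and 4.79 in Erg +/- HSCs, 5.26, 5.23 and 5.52 in Erg fl/fl MPPs, and 5.04, 5.11 and 4.92 in Erg -/- MPPs. All 6 MPP arrays lay above all 6 HSC arrays, with differences of 0.70 (SE 0.187, adjusted p = 0.0872 by limma) between the controls and 0.29 between the reduced-Erg groups. Slc22a22, of an organic anion transporter family, differed by 0.64 (adjusted p = 0.0941), and Slc6a7, a proline transporter, by 0.61 (adjusted p = 0.123). Abcb11, which encodes the bile salt export pump, read 3.10, 3.44 and 3.29 in Erg +/+ HSCs and 3.48, 4.48 and 4.40 in Erg fl/fl MPPs. These groups did not overlap, and the difference was 0.84 (SE 0.264, adjusted p = 0.112). Slc22a30, another organic anion carrier, read 2.89, 2.44 and 3.13 in Erg +/+ HSCs and 2.82, 4.91 and 4.37 in Erg fl/fl MPPs, so it overlapped through replicate 1 of the MPPs (1.21, adjusted p = 0.139). Without that array Slc22a30 (1.81, adjusted p = 0.0150) and Abcb11 (1.17, adjusted p = 0.0336) passed. Slc35a3, the Golgi carrier of UDP-N-acetylglucosamine, differed by 0.72 (adjusted p = 0.152) between the controls and by 0.56 between the reduced-Erg groups.

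Lower in Erg fl/fl MPPs, after Slc29a3, stood Abcd4 and then carriers of mitochondria and copper. Slc25a23, a calcium-regulated mitochondrial ATP-magnesium/phosphate carrier, read 6.39, 6.32 and 6.93 in Erg +/+ HSCs, 6.72, 6.10 and 6.26 in Erg +/- HSCs, 5.55, 5.53 and 5.45 in Erg fl/fl MPPs, and 5.21, 6.56 and 5.23 in Erg -/- MPPs. The control groups lay wholly apart (-1.03, SE 0.325, adjusted p = 0.113 by limma), and replicate 2 of the Erg -/- MPPs lay among the HSC arrays. Without that array, which enters this contrast through the shared spread only, Slc25a23 (adjusted p = 0.0421) and Slc35g1 (0.0440) passed. Slc31a1, the copper importer CTR1, read 7.18, 7.20 and 8.03 in Erg +/+ HSCs and 6.95, 6.37 and 5.85 in Erg fl/fl MPPs (-1.08, SE 0.379, adjusted p = 0.139). Slc25a35, a mitochondrial carrier of unsettled substrate, read 6.96, 6.06 and 7.52 in Erg +/+ HSCs and 5.18, 5.61 and 5.97 in Erg fl/fl MPPs (-1.26, SE 0.421, adjusted p = 0.128). In both genes the groups did not overlap but each spanned a wide range. Slc44a1, the choline transporter CTL1, has 2 probe sets, of which the brighter differed by -0.91 with overlap and the dimmer by -1.18, with unadjusted p = 0.000349 by limma over all deposited probe sets. The brighter one differed by -0.49 without Erg +/+ HSC replicate 1 and by -1.38 without replicate 3.

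**Figure D4:**
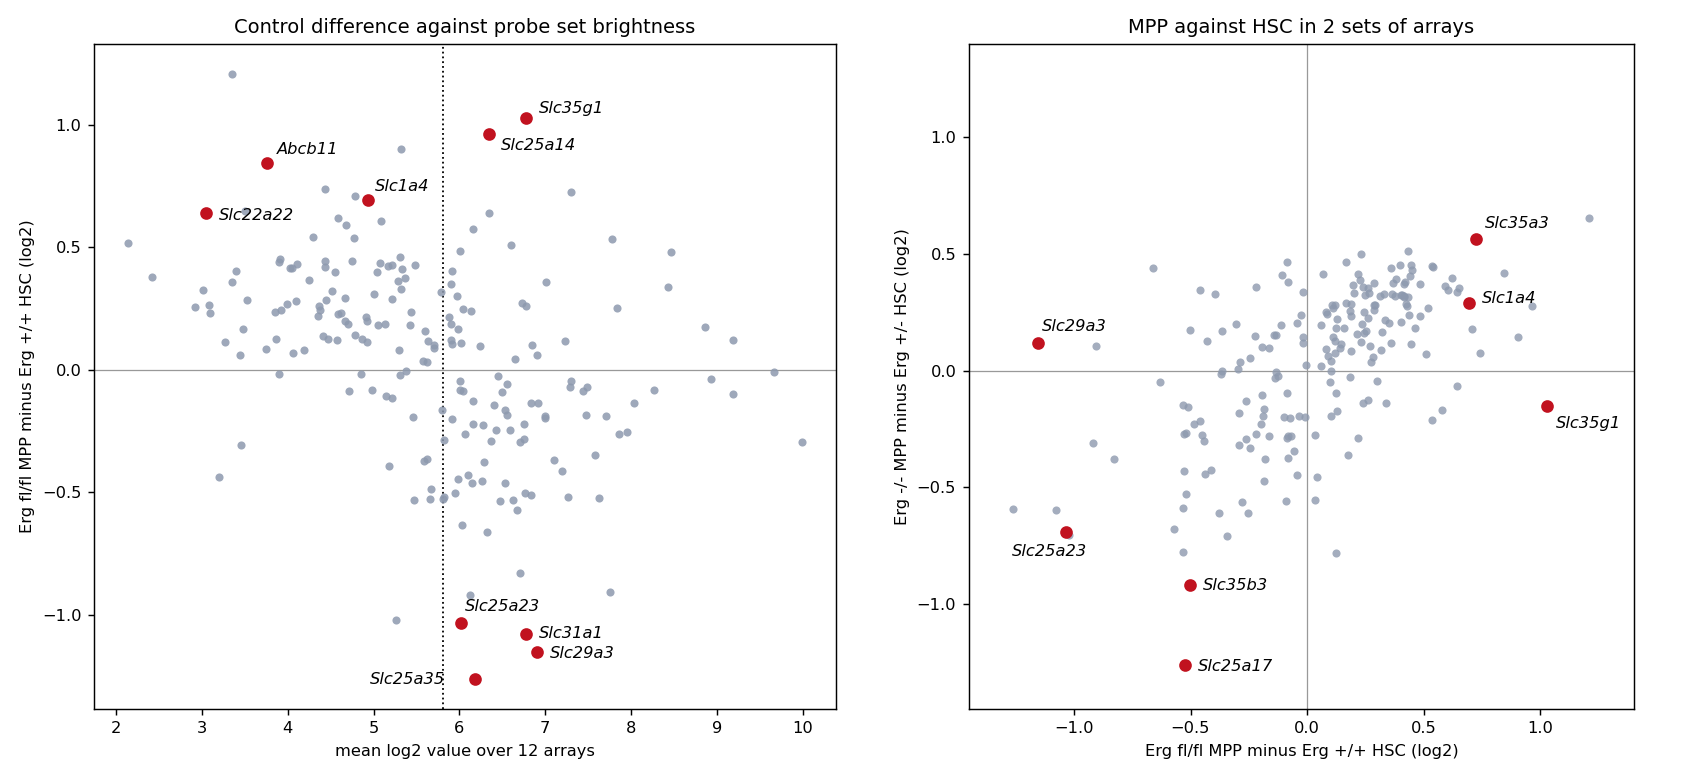
Left panel, difference of Erg fl/fl MPPs from Erg +/+ HSCs (y axis, log2) against mean log2 value over 12 arrays (x axis) for the 203 genes, with a dotted line at the median mean value of all genes. Right panel, the same difference (x axis) against that of Erg -/- MPPs from Erg +/- HSCs (y axis), where Slc29a3 lies at -1.15 and 0.12 and Slc35g1 at 1.03 and -0.15.

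Between the reduced-Erg populations 0 members were called by limma, beside 0.12% of all genes, and 10 (4.93%) had an unadjusted p under 0.05, beside 3.85% of all genes. Groups did not overlap for 37 members (18.2%), beside 20.1% of all genes. The largest difference was that of Slc25a17, which encodes a peroxisomal carrier of coenzyme A and related cofactors. It read 8.19, 8.36 and 8.10 in Erg +/- HSCs and 7.91, 7.68 and 5.26 in Erg -/- MPPs, a difference of -1.26 (SE 0.529, adjusted p = 0.446). Replicate 3 of the Erg -/- MPPs sets its size: without it the difference was -0.42 (adjusted p = 0.659). Slc35b3, a Golgi carrier of the sulfate donor PAPS, differed by -0.92, Slc36a4, a proton-coupled amino acid transporter, by -0.78, and Slc7a1, the arginine transporter CAT1, by -0.53, all with adjusted p = 0.446. Among higher genes, the organic anion transporter genes Slc22a8 (0.51) and Slc22a6 (0.45), the choline transporter-like gene Slc44a5 (0.44), Slc9a5 (0.46) and Slc35g3 (0.45) had the same adjusted p. Single arrays weigh on these values too: without Erg +/- HSC replicate 2 Slc35b3 differed by -0.45, and without Erg -/- MPP replicate 3 Slc22a6 differed by 0.25, Slc22a8 by 0.31 and Slc44a5 by 0.26.

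MPPs and HSCs were compared in 2 sets of arrays that share no array. In both sets pIpC goes with population, and in the reduced-Erg set the number of Erg alleles and the Cre also differ, so none of these can be told apart from population. Signs matched for 155 of 203 members (76.4%) and 74.9% of all genes, with r = 0.597 over members and 0.578 over all genes. Arrays did not overlap in the same direction in both sets for 9 members (4.43%), beside 5.49% of all genes: Slc25a17 was lower in MPPs, and Abcb9, Slc1a4, Slc10a1, Abcc2, Slc2a5, Slc35f1, Slco4c1 and Slco6d1 were higher. Neither Slc29a3 nor Slc35g1 was among them.

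Some of the brightest members of their classes had small differences throughout, whereas Slco3a1 and Slc29a3, the brightest of theirs, had the differences given before. Slc25a5, the adenine nucleotide translocator ANT2, had group means within 0.30 of each other in each of the HSC, MPP and population comparisons. Slc12a2, a sodium-potassium-chloride cotransporter, differed by at most 0.10 in size in these comparisons. Slc39a1, a zinc importer, differed by at most 0.28 in size. Abce1, a ribosome recycling factor, was 0.33 lower in Erg -/- MPPs without overlap, and 0.21 higher in Erg +/- HSCs with overlap. The sialic acid exporter gene Slc17a5, the brightest of the vesicular and organic anion class, differed by -0.58 in MPPs and -0.29 in HSCs, uncalled in both. Abcb8, a mitochondrial ABC protein, differed by 0.48 in HSCs and 0.24 in MPPs, and by -0.38 and -0.61 between the control and reduced-Erg populations. Abcc4, the nucleotide and drug exporter MRP4, differed by -0.14 in HSCs and -0.43 in MPPs. Slc15a4, which exports histidine and small peptides from lysosomes, differed by 0.64 between the controls (adjusted p = 0.214 by limma) and by -0.50 in MPPs. Slc16a10, a transporter of aromatic amino acids, differed by 0.90 between the controls (adjusted p = 0.127), and Slc5a1, the sodium-glucose cotransporter SGLT1, by 0.62 (adjusted p = 0.166). None of these 6 genes was called. Transport genes outside the SLC and ABC symbols were read as well. Of 54 listed (ion pumps, chloride carriers, water channels and others) 24 were measured, and 0 were called in any comparison by limma. An unadjusted p under 0.05 was reached by 3 of the 24 in HSCs, 2 in MPPs and 3 between the controls. Over all genes these shares were 6.32%, 4.79% and 22.3%. In MPPs 17 of these 24 had negative differences, among them Atp11b, a phospholipid flippase (-0.77, adjusted p = 0.167 by limma). Negative differences in MPPs were also read for 50.6% of all genes, and for 3137 of the 4992 bright ones.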

How the data were processed

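The deposited values are log2 intensities of 18719 probe sets on 12 arrays, made by the authors with RMA and the affy package, per the submitters' processing notes, whose versions are not given in the sources used here. Each sample started from 20 ng of RNA, which was amplified, per the labels. RMA usually ends on a common distribution over arrays, but the deposited columns differ in spread, so normalisation was also repeated. Folds of dim probe sets are compressed. Arrays have no read depth, and precision is limited by having 3 per group. The platform annotation gave 10657 probe sets 1 gene symbol and 523 several, and did not list 7539.

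One limma model (limma 3.58.1, R 4.3.3) with 4 group means over all 12 arrays (8 residual and 4.35 prior degrees of freedom) gave every comparison. All tests are two-sided. The Benjamini-Hochberg adjustment ran over 9984 genes, with a threshold of 0.05. SE is the moderated standard error. A gene's groups do not overlap when all 3 arrays of one lie above all 3 of the other. Members and gene lists were chosen with earlier results of these data known. Genes were named by the rule of the 8 called genes with the largest change or, where fewer than 5 were called, the 5 smallest p-values per comparison and direction, and by class the brightest member and that with the smallest p between the controls, of which the smaller classes are given in part. Chosen by this rule but not described above were Slc4a2 and Slc46a1 (0.31 and 0.32 in the mean of both comparisons). The same holds for Slc25a51 (-0.48 in the difference of effects), and none of these was called. Genes of heme supply and a few others were added after their values were seen.

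On simulated data with 9984 genes, each comparison held 100 genes with a shift of 1 on the log2 scale, 100 with a shift of 2 and 9784 unchanged. The HSC comparison called 60 of 100 at a shift of 1 and 98 of 100 at a shift of 2 (5 unchanged genes called). The MPP comparison called 63 and 98 (11), and the comparison of controls 63 and 98 (7). On the deposited data these comparisons called 2, 8 and 128 of 9984 genes. The adjustment depends on how many genes change, and the share called with fewer changed genes was not tested. Alternatives were a replicate block, filters at percentiles 25 and 50, other handling of probe sets, repeated quantile normalisation, median centring, array weights, a robust prior with a trend, a fit of the compared arrays alone, and each array left out.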

Additional observations from a re-analysis of the deposited data

How the results depend on the processing

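The counts of called members in the MPP comparison, the difference of effects and the reduced-Erg populations were 0 under every alternative run. The HSC count was 1 with the filter at percentile 25 (Slc29a3). Between the control populations it was 2 with array weights, where Slc35g1 joined (adjusted p = 0.0379). Leaving out single arrays gave counts of 1 to 3. Chosen after seeing the data were the mean of both comparisons and the removal of replicate 1 of the Erg +/+ HSCs together with replicate 1 of the Erg fl/fl MPPs. Without those 2 arrays the control count was 2, with Slc22a30 (adjusted p = 0.0391), and Abce1 (-0.10) and Slc20a1 (-0.030) turned from positive to negative there, uncalled in both. For the mean of both comparisons the count of 1 (Slco3a1) became 0 with the replicate block (adjusted p = 0.0505), over all deposited probe sets (0.112, with 18719 tests) and without the 2 arrays (0.125), and ranged from 0 to 1 with 1 array left out. Apart from the constructions named, the cause was not tested.

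Replicate numbers showed little sign of pairing the samples. Same-numbered arrays deviated together with r of -0.0852 to 0.0862 within the HSC and MPP comparisons. Within the population comparisons r was -0.000992 to 0.104, the highest for replicate 1 of the controls. With the replicate block Slc29a3 was still called between the controls (adjusted p = 0.0116), and the counts of 0 in the HSC, MPP and reduced-Erg comparisons did not change. Of the values of named genes under the alternatives, 1702 kept their direction and side of the threshold, 10 lost and 5 gained a call, and 2 reversed.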
